A study of Mus musculus with 12 samples.

Results

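The data compared here ask what the PPARδ agonist GW1516 added to the muscle transcripts of mice that were also given AICAR. The members are 6 of the 12 arrays of a series on quadriceps muscle of C57Bl/6J mice: 3 arrays labelled as GW1516 plus AICAR and 3 labelled as AICAR, chosen by those labels alone. The first group received GW1516 at 5 mg/kg/day and AICAR at 250 mg/kg/day, and the second AICAR at 250 mg/kg/day without GW1516, so both groups carried AICAR for the whole 6 days. The other 6 arrays, 3 for GW1516 at 5 mg/kg/day and 3 for vehicle, share no array with this comparison and are given beside it. The sources used here give neither age and sex of the mice nor the route of dosing. Each array took a pool of RNA from 3 mice, and since nothing in the labels says that the pools came from different mice, the p-values speak for the spread between pools.

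PPARδ is a nuclear receptor that is switched on by fatty acids. As a dimer with a retinoid X receptor it binds DNA elements built from repeats of AGGTCA and turns on genes for the uptake, transport and mitochondrial oxidation of fatty acids in skeletal muscle. AICAR is an adenosine analogue that muscle converts into a mimic of AMP, and it activates the AMP-activated protein kinase, which senses falling cellular energy. That kinase also favours fat oxidation, by lowering malonyl-CoA, the inhibitor of fatty acid entry into mitochondria.

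Of 12771 genes tested, 4 were called in GW1516 plus AICAR against AICAR (limma, adjusted p below 0.05), which is 0.0313% of the genes. All 4 were higher with GW1516 and 0 were lower. They were Fbp2, the muscle form of fructose-1,6-bisphosphatase, Slc25a20, the carrier that brings acylcarnitines into mitochondria, Acadl, the long-chain acyl-CoA dehydrogenase of the first step of β-oxidation, and Ucp3, an uncoupling protein of the inner mitochondrial membrane in skeletal muscle. At an unadjusted p below 0.05 there were 419 genes higher and 516 lower, 935 in all or 7.32%, where 639 would fall there if no gene differed.

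Because GW1516 acts through a receptor with a known DNA element, the window from 250 bases before to 50 after the RefSeq start of each called gene was read (GRCm38.p6). All 4 genes had a window. The 3 windows with a match to AGGNCA on either strand, the element's repeat with 1 base left free, are printed 5′ to 3′ on the strand of the gene, with the matches in capitals. They are Ucp3 at chr7:100472741-100473040 on the plus strand, Fbp2 at chr13:62858351-62858650 on the minus strand and Slc25a20 at chr9:108661886-108662185 on the plus strand.
Ucp3: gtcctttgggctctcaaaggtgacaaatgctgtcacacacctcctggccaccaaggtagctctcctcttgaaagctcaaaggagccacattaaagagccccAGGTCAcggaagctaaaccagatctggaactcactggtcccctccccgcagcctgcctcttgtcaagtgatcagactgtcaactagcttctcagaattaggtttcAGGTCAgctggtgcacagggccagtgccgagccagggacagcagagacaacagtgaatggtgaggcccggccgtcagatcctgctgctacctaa
Fbp2: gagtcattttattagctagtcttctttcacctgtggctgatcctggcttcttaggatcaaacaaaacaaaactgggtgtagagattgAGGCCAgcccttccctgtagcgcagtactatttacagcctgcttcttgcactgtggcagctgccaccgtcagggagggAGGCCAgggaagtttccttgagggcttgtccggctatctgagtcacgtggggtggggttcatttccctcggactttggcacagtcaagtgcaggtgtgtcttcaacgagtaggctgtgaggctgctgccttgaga
Slc25a20: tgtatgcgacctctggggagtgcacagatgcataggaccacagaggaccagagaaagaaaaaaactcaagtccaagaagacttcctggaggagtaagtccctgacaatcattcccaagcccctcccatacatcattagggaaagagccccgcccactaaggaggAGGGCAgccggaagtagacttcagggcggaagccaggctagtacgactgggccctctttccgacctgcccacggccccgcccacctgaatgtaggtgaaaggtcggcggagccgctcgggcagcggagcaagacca
Ucp3 held 2 matches, at bases 102 and 207 of the window, and both read AGGTCA in full. Fbp2 held 2, at bases 88 and 166, Slc25a20 held 1, at base 165, and the window of Acadl on chromosome 1 held 0. AGGTCA stood in 16.255% of 32851 windows of the same length and AGGNCA, which includes it, in 57.225%. The repeat with a single base between its copies, AGGTCANAGGTCA, stood in 0.04% of the windows, and its looser form AGGNCANAGGNCA in 0.381%, with 0 matches to either in the 4 called genes. These matches describe letters only.

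Fbp2 had the smallest p of all genes tested. Its enzyme removes a phosphate from fructose-1,6-bisphosphate, the reverse of the committed step of glycolysis, and serves the making of glycogen from lactate in muscle. Its signal was 2622, 2982 and 2661 in the GW1516 plus AICAR arrays, against 1241, 1254 and 1094 in the AICAR arrays, with no overlap between the groups. This was a rise of 1.20 ± 0.13 on the log2 scale (SE, n = 3 against 3 arrays; values after ± are standard errors throughout), or 2.30-fold (limma, adjusted p = 0.00217). Without AICAR the signal was 2448, 1717 and 2387 in the GW1516 arrays, against 1228, 1010.4 and 1096 in the vehicle arrays.

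Slc25a20 exchanges acylcarnitines for free carnitine across the inner mitochondrial membrane. Its signal was 1599, 1619.8 and 2043 in the GW1516 plus AICAR arrays, against 935, 993 and 999 in the AICAR arrays, so that the lowest array with GW1516 lay well above the highest without it. The rise was 0.84 ± 0.11 on the log2 scale, or 1.79-fold (limma, adjusted p = 0.0229). A second probe set of the gene, which was not used for the test, stood at 0.73. In the mice without AICAR the signal was 1549, 1542 and 1450.4 in the GW1516 arrays, against 1116, 1118 and 867 in the vehicle arrays.

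Acadl takes the first hydrogen pair from long-chain acyl-CoA in the mitochondrial matrix. Its signal was 6344, 5102 and 5134 in the GW1516 plus AICAR arrays, against 3109, 3111 and 3632 in the AICAR arrays, and the groups did not overlap. The rise was 0.75 ± 0.11 on the log2 scale, or 1.68-fold (limma, adjusted p = 0.0461). The GW1516 arrays had 5134, 6115 and 4609, against 2926, 2773 and 2625 in the vehicle arrays.

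Ucp3 rises in muscle when fatty acid supply is high, as in fasting. Its signal was 2722, 2854 and 3050.1 in the GW1516 plus AICAR arrays, against 1417, 1757 and 1091 in the AICAR arrays. The arrays with GW1516 lay close together, while those with AICAR spread widely without reaching them. The rise was 1.04 ± 0.16 on the log2 scale, or 2.06-fold (limma, adjusted p = 0.0461), and a second probe set stood at 1.19. The GW1516 arrays had 2301, 3218 and 2559, against 1178, 895 and 1079 in the vehicle arrays.

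Of these 4 calls, that of Fbp2 held in 12 of 12 omissions of 1 array and that of Slc25a20 in 6, while those of Acadl and Ucp3 held in 3 each. The count was 1, Fbp2, without GW1516 plus AICAR replicate 1 or 2 or without AICAR replicate 1 or 3. It was 2 without AICAR replicate 2 or without any 1 vehicle array. It was also 2 without GW1516 plus AICAR replicate 3, where the genes were Fbp2 and Rnf122, the latter not among the 4. It was 3 without GW1516 replicate 3, 5 without GW1516 replicate 1 and 10 without GW1516 replicate 2. The GW1516 and vehicle arrays enter only through the shared estimate of spread. The 10 were the 4 calls with Acot2, Eci2, Etfb, Mlycd, Pim1 and Tfrc. Over all omissions the rise lay between 1.14 and 1.24 for Fbp2, 0.72 and 0.90 for Slc25a20, 0.64 and 0.82 for Acadl, and 0.86 and 1.21 for Ucp3. With 3 arrays against 3, an exact permutation test of a single gene cannot give a two-sided p below 0.1.

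**Figure D1:**
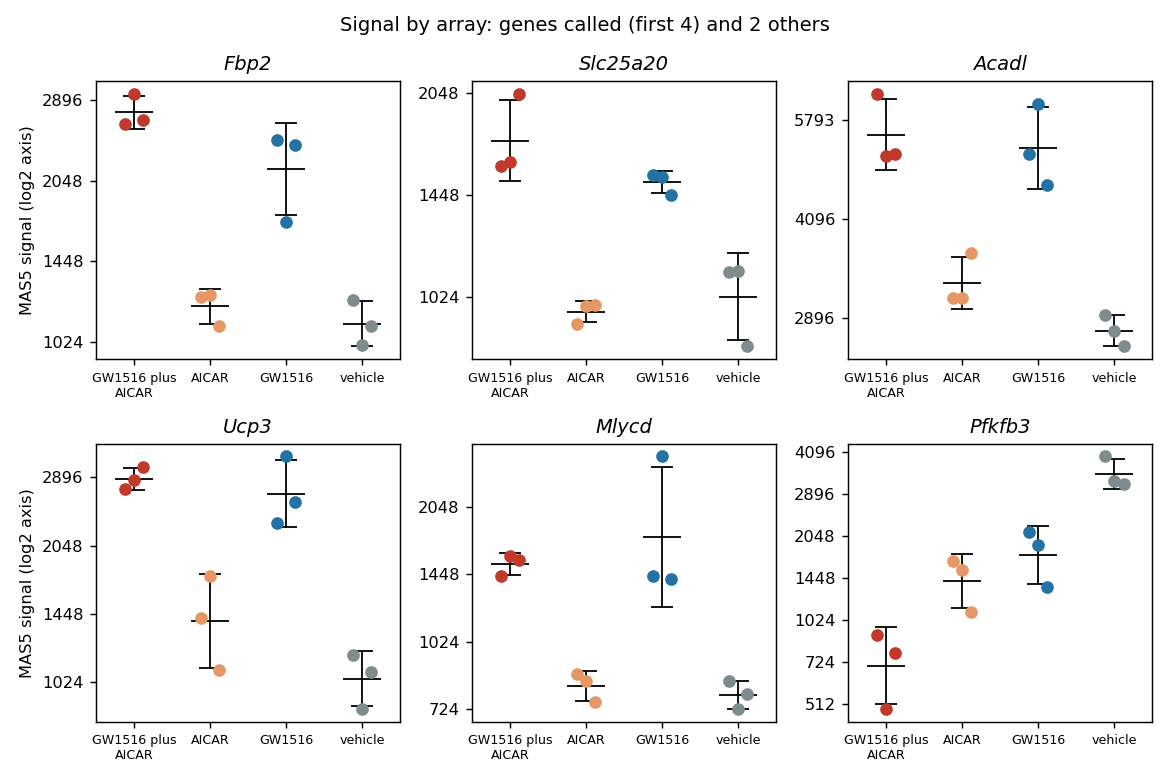
MAS5 signal on a log2 axis of the 4 genes called and of Mlycd and Pfkfb3, which were not called in GW1516 plus AICAR minus AICAR, in the 3 arrays of each of the 4 groups. Points are arrays, long bars are group means of log2 signal and error bars are 1 SD. For the first 5 genes every GW1516 plus AICAR array sits above every AICAR array, and for Pfkfb3 every one sits below.

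The 6 arrays had median signals between 50.6 and 54.2. Correlations between them over the genes tested lay between 0.954 and 0.967 within a group and between 0.953 and 0.964 across groups. GW1516 replicate 2, which is not among the 6, stood apart on the first principal component of all 12 arrays, a component with 13.4% of the variance. Skeletal muscle markers were bright in all 6 arrays, as in Myh4, the fast myosin heavy chain, at 28216, 30024 and 29612 in GW1516 plus AICAR arrays and 26466, 26635 and 26206 in AICAR arrays. The median standard error of a change was 0.19 on the log2 scale, larger for dim genes.

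**Figure D2:**
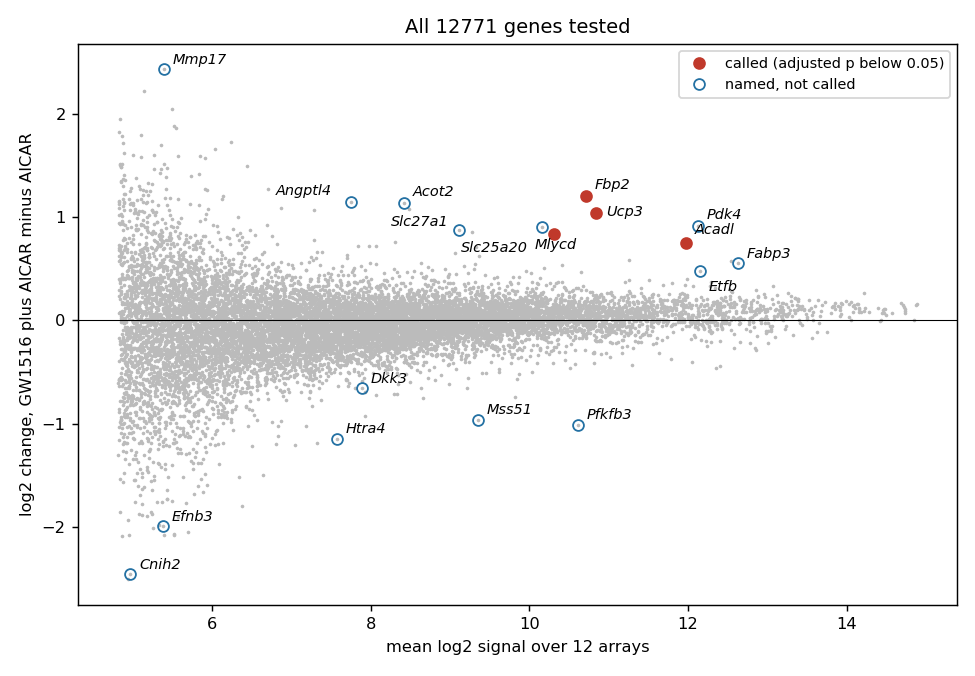
Log2 change in GW1516 plus AICAR minus AICAR (vertical axis) against the mean log2 signal over 12 arrays (horizontal axis) for the 12771 genes tested. Filled points are the 4 genes called, which lie on the brighter side with changes between 0.75 and 1.20, and open circles are named genes that were not called, the most extreme of them dim genes with wide errors.

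Of the 12 higher genes of smallest p, 6 belonged to mitochondrial fatty acid oxidation: Slc25a20, Acadl, Etfb, Mlycd, Eci2 and Crat. The list of this pathway held 30 genes, of which 28 were measured, and 26 of these stood above 0. In 14 members all 3 GW1516 plus AICAR arrays were above all 3 AICAR arrays, and in 0 were all below, beside 6.8% and 7.68% of all genes. The median of the list was 0.19 on the log2 scale, beside -0.02 over all genes tested. Slc25a20 and Acadl were called, and 12 members had an unadjusted p below 0.05, all higher, beside 3.28% of all genes. The list was drawn up with earlier results of these arrays known, so these counts describe it and are no independent evidence.

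Along the pathway, the genes of uptake and of the malonyl-CoA brake came first. Slc27a1, a fatty acid transport protein of the plasma membrane, had signals of 1070.1, 723 and 603 in GW1516 plus AICAR arrays, against 311, 439 and 549 in AICAR arrays, a difference of 0.88 ± 0.21 (limma, adjusted p = 0.467). Fabp3, the muscle and heart fatty acid binding protein, had 8910.2, 6733 and 7907 with GW1516 plus AICAR and 5399.8, 4961 and 5587 with AICAR, a difference of 0.55 ± 0.14 (limma, adjusted p = 0.467). In both genes the groups did not overlap, narrowly in Slc27a1. Mlycd, which breaks down malonyl-CoA, had 1435, 1595 and 1559.6 in GW1516 plus AICAR arrays, against 868, 837 and 748 in AICAR arrays. The 2 groups were far apart, by 0.91 ± 0.18 on the log2 scale, yet the gene missed the threshold (limma, adjusted p = 0.396). It was called when GW1516 replicate 2, where its signal was 2664, was left out of the shared spread, when array weights were used and when only the 6 arrays were fitted. Acacb, whose enzyme makes malonyl-CoA at the mitochondrion, stood at 0.21 ± 0.12, with all 3 GW1516 plus AICAR arrays above the AICAR arrays (limma, adjusted p = 0.741).

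In the carnitine shuttle, Slc25a20 lies between the 2 palmitoyltransferases. Cpt1a, the liver form of the outer enzyme, which muscle also expresses at a low level, differed by 0.47 ± 0.24 with overlapping groups, and Cpt2, the inner enzyme, by 0.11 ± 0.13. Cpt1b, the muscle form, was not among the genes tested. Crat, carnitine acetyltransferase, which buffers acetyl-CoA, had 3667, 3925 and 3845 in GW1516 plus AICAR arrays, against 2998, 3074 and 2961 in AICAR arrays, a small but separate difference of 0.34 ± 0.077 (limma, adjusted p = 0.467).

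Among the dehydrogenases of the first step, Acadl stood highest. Acadvl, for very long chains, differed by 0.36 ± 0.10 and Acadm, for medium chains, by 0.10 ± 0.10, while Acads, for short chains, differed by 0.17 ± 0.11. The electrons of this step pass to the electron transfer flavoprotein. Its β subunit gene Etfb had 5657, 5208 and 5573 in GW1516 plus AICAR arrays, against 3783, 3962 and 4076 in AICAR arrays, a difference of 0.48 ± 0.094 (limma, adjusted p = 0.395). Its partner subunit gene Etfa differed by 0.10 ± 0.11 and the gene of the acceptor enzyme, Etfdh, by 0.20 ± 0.11. Of these 7 genes Acadl was the 1 called, though Etfb was also called without GW1516 replicate 1, without GW1516 replicate 2 and when only the 6 arrays were fitted.

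No gene of the later steps was called with all 12 arrays, though Eci2 and Acot2 were called without GW1516 replicate 2 and Acot2 when only the 6 arrays were fitted. Hadha and Hadhb, the subunits of the trifunctional protein, differed by 0.27 ± 0.092 and 0.20 ± 0.075, Hadh, the short-chain hydroxyacyl-CoA dehydrogenase, by 0.23 ± 0.083, and Acaa2, the thiolase, by 0.47 ± 0.14. All 4 had groups that did not overlap, beside 6.8% of all genes with all 3 arrays higher. That share was 14.9% at mean signals of 1024 to 4096 and 36.9% over 4096. Eci2, an isomerase for unsaturated chains, had 1275, 1197 and 1149 in GW1516 plus AICAR arrays, against 859.8, 907 and 862 in AICAR arrays, a difference of 0.46 ± 0.10 (limma, adjusted p = 0.467). Acot2, a mitochondrial thioesterase that releases fatty acids from CoA, had 517, 484 and 529 in GW1516 plus AICAR arrays, against 199, 213 and 294 in AICAR arrays. That was the largest difference of the list, 1.13 ± 0.28, with tight GW1516 plus AICAR arrays (limma, adjusted p = 0.477). A dimmer second probe set stood at 0.47. Acot2 has near-identical paralogues, so part of its signal may come from them.

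**Figure D3:**
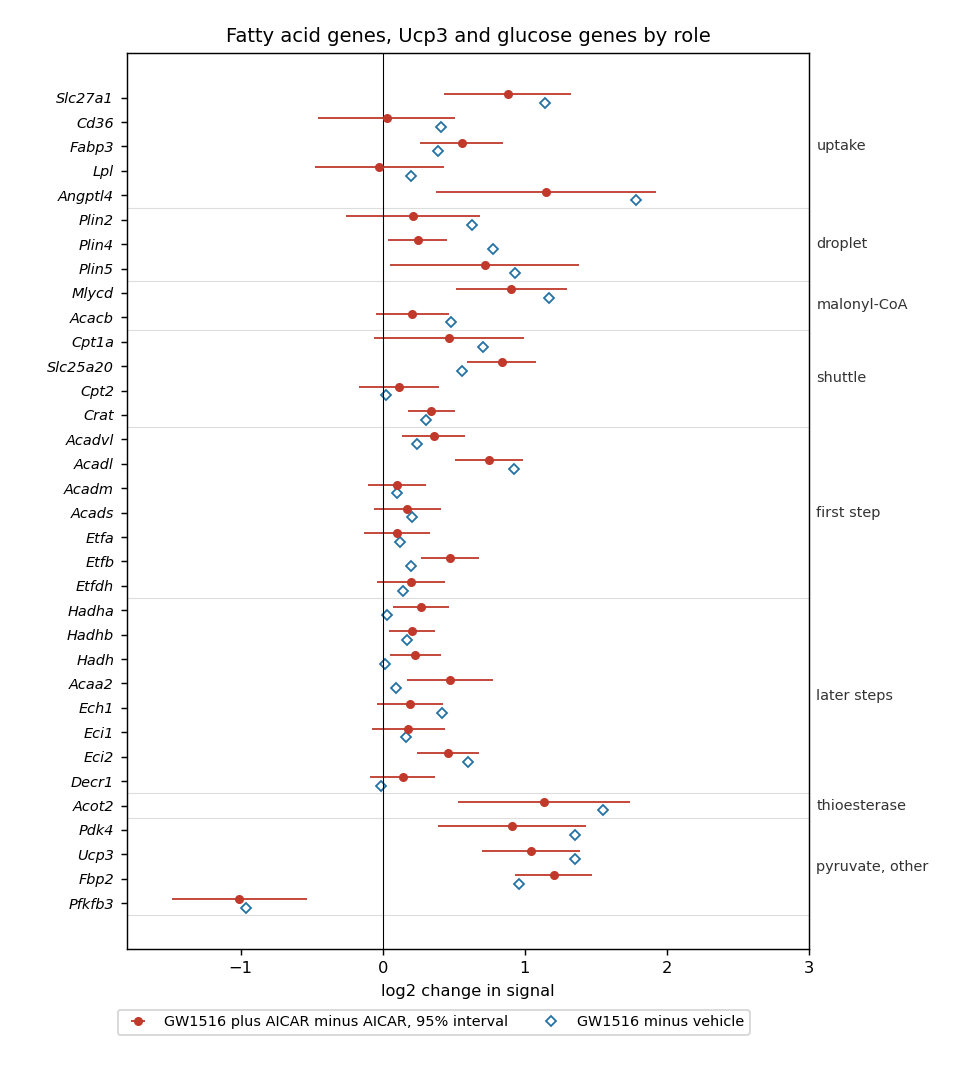
Log2 change of genes of fatty acid use and of Ucp3, Pdk4, Fbp2 and Pfkfb3, grouped by role, in GW1516 plus AICAR minus AICAR (filled circles, bars are 95% intervals) and in GW1516 minus vehicle (open diamonds). Most circles lie right of 0, with Fbp2 at 1.20, Angptl4 at 1.15 and Acot2 at 1.13 farthest, and Pfkfb3 lies left of 0 in both comparisons.

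A list of PPAR target genes, 39 of which 33 were measured, held all 4 called genes. Of the 33, 30 stood above 0 with a median of 0.36 on the log2 scale (0.23 without AICAR replicate 1), and 18 had an unadjusted p below 0.05, all higher, beside 3.28% of all genes. The list shares members with the oxidation list and was also made with earlier results known. Pdk4, the kinase that shuts pyruvate dehydrogenase and so spares glucose, had 8196, 5353 and 6321 in GW1516 plus AICAR arrays, against 3459, 4264 and 2834 in AICAR arrays. The groups were separate and differed by 0.91 ± 0.24 (limma, adjusted p = 0.553). Angptl4, a secreted inhibitor of lipoprotein lipase, had 427, 281 and 327 in GW1516 plus AICAR arrays, against 80.9, 198 and 224 in AICAR arrays, a difference of 1.15 ± 0.36 with a wide error (limma, adjusted p = 0.63). The related kinases Pdk1 and Pdk2 differed by -0.08 ± 0.10 and 0.15 ± 0.078, and Pdk3 was not among the genes tested.

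Members that handle uptake and storage varied more between arrays. Cd36, a fatty acid translocase, had 2124, 1147 and 1265 in GW1516 plus AICAR arrays and 1076, 1502 and 1799 in AICAR arrays, overlapping, with a difference of 0.03 ± 0.23. Lpl, lipoprotein lipase, had 8801, 4602 and 5970.3 in GW1516 plus AICAR arrays and 4800.0, 6387 and 8291 in AICAR arrays, with a difference of -0.02 ± 0.21. In both genes the first GW1516 plus AICAR array and the third AICAR array were the highest of their group. The lipid droplet proteins gave 0.21 ± 0.22 for Plin2, 0.25 ± 0.10 for Plin4 and 0.72 ± 0.31 for Plin5, none called, with 0.89 in a second probe set of Plin5. The wider list of lipid uptake and storage had 15 of 28 measured members above 0 and a median of 0.02, beside -0.02 for all genes. That median moved to -0.13 without AICAR replicate 1 and to 0.20 without AICAR replicate 3.

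Adipocyte markers were also highest in the first GW1516 plus AICAR array and the third AICAR array. The median of 17 measured markers, set against the mean of the AICAR arrays, was 0.29, -0.24 and -0.77 in the GW1516 plus AICAR arrays 1 to 3 and -0.68, 0.05 and 0.72 in the AICAR arrays. That of the lipid uptake and storage list was 0.41, -0.06 and -0.12 in the GW1516 plus AICAR arrays and -0.38, 0.01 and 0.40 in the AICAR arrays. The summed signal of the adipocyte markers ranged from 19182 to 35377 in GW1516 plus AICAR arrays and from 21125 to 39739 in AICAR arrays, and no marker was at the floor of the signal scale. Of the 17 markers 14 stood below 0 and 0 were called. The list's median change of -0.27 moved to -0.69 without AICAR replicate 1 and to 0.07 without AICAR replicate 3. In these bulk samples, fewer cells of a type and less RNA per cell cannot be told apart, and the part of the markers in the lipid genes' values was not tested.

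In glucose use, Fbp2 was the 1 member called of 35 measured, and 20 of the 35 stood above 0 with a median of 0.06. After quantile normalization 15 stood above 0, with a median of -0.005. Fbp1, the liver form, was dim, with a difference of -0.04 ± 0.39. Pfkfb3, whose enzyme makes fructose-2,6-bisphosphate, the activator of phosphofructokinase and inhibitor of fructose-1,6-bisphosphatase, had 907, 492 and 779 in GW1516 plus AICAR arrays, against 1668, 1551 and 1092 in AICAR arrays. The groups were separate, and the difference was -1.01 ± 0.22 (limma, adjusted p = 0.467), with -0.52 in a second probe set. Without AICAR the values were 2122, 1907 and 1342 in GW1516 arrays, against 3954, 3226 and 3151 in vehicle arrays, so the vehicle arrays were the highest of the 12 and the GW1516 plus AICAR arrays the lowest. The related Pfkfb4 and Pfkfb2 differed by 0.18 ± 0.10 and -0.05 ± 0.16, and a dim second probe set of Pfkfb2 stood at 0.55. Several genes of glucose entry and glycolysis gave small values, such as 0.14 ± 0.074 for Slc2a4, the insulin-responsive glucose transporter, 0.09 ± 0.066 for Hk2 and 0.08 ± 0.082 for Pfkm, the muscle phosphofructokinase. Pgam1 and the dim Pfkp stood lower, at -0.34 ± 0.15 and -0.99 ± 0.51, and neither was called.

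On the lower side no gene was called (limma), although Vsig10 was called with variances fitted without a trend and Rnf122 without GW1516 plus AICAR replicate 3. The 12 lower genes of smallest p had adjusted p-values from 0.44 to 0.467 and changes from -2.46 to -0.46, and 4 of them had a mean signal under 64. Mss51, which encodes a mitochondrial protein of skeletal muscle, had 364, 653 and 451 in GW1516 plus AICAR arrays, against 1181, 749.8 and 896 in AICAR arrays, a difference of -0.96 ± 0.21. Dkk3, a secreted protein of the Dickkopf family, had 165, 199 and 189.7 in GW1516 plus AICAR arrays, against 261, 287 and 327 in AICAR arrays, a difference of -0.66 ± 0.15. In both genes the groups did not overlap, but a second Dkk3 probe set of like brightness stood at -0.19. Malat1, a long non-coding RNA of the nucleus, differed by -0.46 ± 0.11, with its 6 other probe sets between -0.59 and 0.06, Nlrx1, a mitochondrial member of the NOD-like receptor family, by -0.59 ± 0.13, and Htra4, a serine protease gene, by -1.15 ± 0.24. Among dim genes of either side, Gins3, a subunit of a DNA replication complex, stood at 1.41 ± 0.27, but its second probe set stood at -0.16, and Cnih2 and Mmp17 stood at -2.46 ± 0.54 and 2.43 ± 0.57 on mean signals near the filter.

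The receptors and coactivators themselves gave no call. Ppard, the target of GW1516, had 260.0, 222 and 291 in GW1516 plus AICAR arrays and 270.4, 222 and 259 in AICAR arrays, overlapping, with a difference of 0.04 ± 0.16. Ppara differed by 0.27 ± 0.35 and Pparg by -0.40 ± 0.54, and the other probe sets of Ppara stood at -1.21 and 0.55. Of 24 measured receptors and coregulators, 4 had an unadjusted p below 0.05, all lower, beside 4.04% of all genes: Ppargc1b at -0.38 ± 0.15, Ppargc1a at -0.25 ± 0.10, Ncoa3 at -0.35 ± 0.14 and Rxrb at -0.25 ± 0.11. These encode coactivators and a retinoid X receptor. The direction depended on the probe set for some: 4 other Ppargc1a probe sets stood between -0.24 and 0.21 and a second Ncoa3 probe set at 0.02. Of the AMP-activated protein kinase, the main catalytic subunit of muscle, Prkaa2, stood at 0.23 ± 0.11 and the muscle-restricted γ subunit, Prkag3, at -0.05 ± 0.21.

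Respiratory chain and contractile genes stood slightly above 0 together with bright genes in general. Of 70 measured genes of oxidative phosphorylation 63 stood above 0, with a median of 0.11, 39 with 3 separate higher arrays and 0 called. Of 21 fast-twitch genes 19 stood above 0, also with a median of 0.11. Over the 412 genes with a mean signal over 4096, 36.9% had all 3 GW1516 plus AICAR arrays above the AICAR arrays, and their median was 0.08. After quantile normalization that share was 10.2%, and the oxidative phosphorylation list had 49 members above 0, 10 with separate higher arrays and a median of 0.04, while the fast-twitch median was 0.01. The fatty acid oxidation list had 26 of 28 above 0 and 13 with separate higher arrays under that normalization, with a median of 0.16. The slow-twitch list had 8 of 15 above 0 and a median of 0.00, and Myh7, the slow myosin, was not among the genes tested.

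Most markers of connective tissue and of macrophages stood below 0. Of 23 measured fibroblast and matrix markers 22 were below 0, 11 with all 3 GW1516 plus AICAR arrays below the AICAR arrays, beside 7.68% of all genes, and 0 were called. The median was -0.27 on the log2 scale, and set against the AICAR mean it was -0.34, -0.26 and -0.28 in GW1516 plus AICAR arrays, against 0.02, 0.07 and -0.12 in AICAR arrays. Among them Col3a1 stood at -0.45 and Col1a1 at -0.40, genes of fibrillar collagens. The summed signal of these markers ranged from 50535 to 52762 in GW1516 plus AICAR arrays and from 54025 to 66535 in AICAR arrays. Of 20 macrophage and leukocyte markers 17 were below 0, with a median of -0.28 and 0 called, but the median was -0.11 without GW1516 plus AICAR replicate 3. By array it was -0.08, -0.14 and -0.52 in GW1516 plus AICAR arrays and -0.11, 0.08 and 0.04 in AICAR arrays, so the groups overlapped and the third GW1516 plus AICAR array was far the lowest. The complement gene C1qb was the lowest of the 20, at -0.63 ± 0.22, with its other probe sets at -0.59 and -0.32. Another complement gene, C1qa, was the highest, at 0.11. The summed signal of the 20 markers ranged from 5395 to 7198 in GW1516 plus AICAR arrays and from 7240 to 8292 in AICAR arrays. Whether these shifts had a part in the lower genes named above was not tested.

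**Figure D4:**
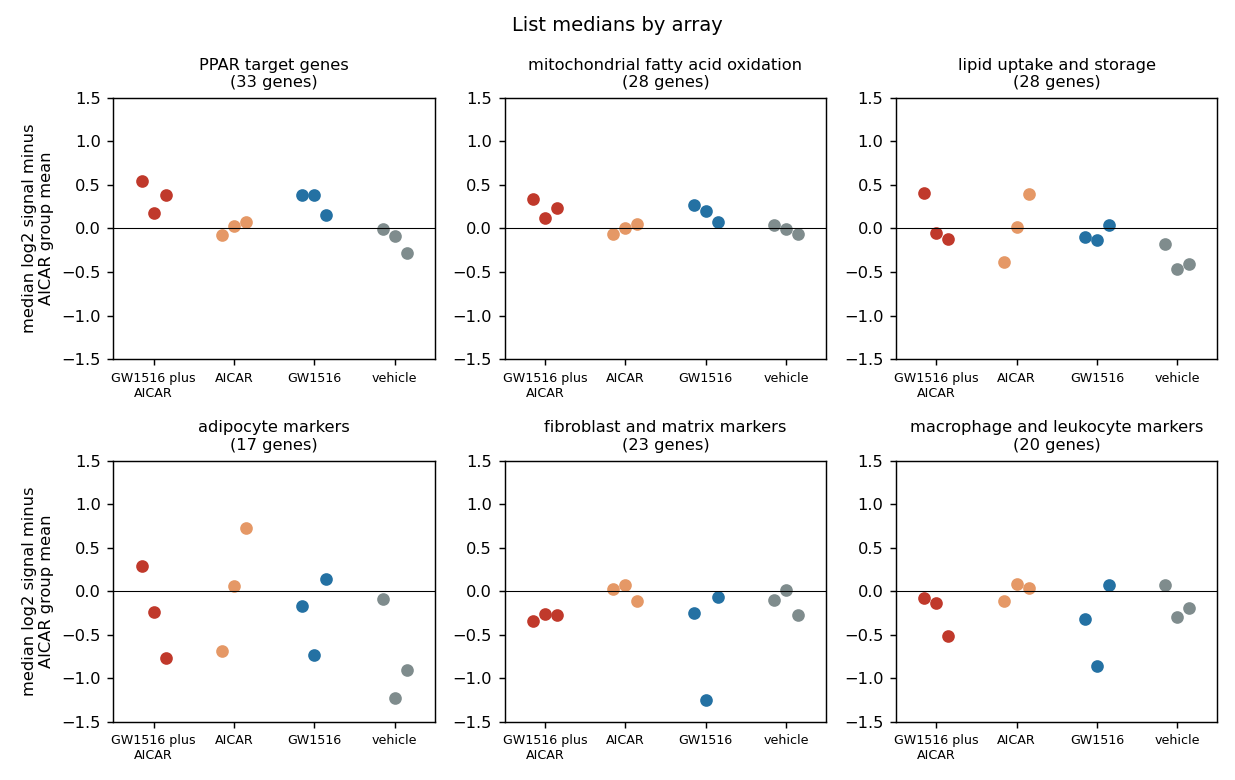
Median log2 signal of 6 gene lists in each of the 12 arrays, relative to the mean of the 3 AICAR arrays, by group; points are arrays. All GW1516 plus AICAR arrays lie above all AICAR arrays for PPAR targets and fatty acid oxidation and below them for matrix markers, while adipocyte markers run from -0.77 to 0.29 in GW1516 plus AICAR arrays and from -0.68 to 0.72 in AICAR arrays.

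The same agonist without AICAR gave a second, separate set of 6 arrays. GW1516 minus vehicle had 12 genes called, 0.094% of those tested, 10 higher (0.0783%) and 2 lower (0.0157%) by limma at an adjusted p below 0.05. Leaving out GW1516 replicate 1 brought that count to 41. Leaving out the first vehicle array brought it to 6, and leaving out either of the others to 0. It was 7 when replicate 2 or 3 of GW1516 plus AICAR, or replicate 2 of AICAR, was left out. Of the 12, 11 had the same sign in GW1516 plus AICAR minus AICAR, where 46.9% of all genes stood above 0. In 10 the 3 arrays lay apart from the AICAR arrays in that direction, beside 6.8% of all genes above and 7.68% below. Over a mean signal of 4096, where some of the 12 lay, the share above was 36.9%. Fbp2, Acadl and Ucp3 were called in both comparisons, which shared the spread estimated from all 12 arrays. When each fit held only the groups compared, none of the 3 was called in both. Fbp2 and Acadl were then called only on addition to AICAR, and Ucp3 only against vehicle. Slc25a20 was called on addition to AICAR and not against vehicle, where its change was 0.56 ± 0.11 (limma, adjusted p = 0.136). Across all genes the changes of the 2 comparisons correlated weakly, with Pearson's r of 0.060, and in the 3193 brightest genes with r of 0.20. Without GW1516 replicate 2 these were 0.035 and 0.23. Genes are not independent replicates, so these describe the arrays.

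Whether the effect of GW1516 differed with AICAR was tested by the interaction, the change in GW1516 plus AICAR minus AICAR less that in GW1516 minus vehicle. It called 0 genes (limma), and 848 genes, 6.64%, had an unadjusted p below 0.05. For Fbp2 it was 0.24 (95% interval -0.14 to 0.62), for Slc25a20 0.28 (95% interval -0.07 to 0.62), for Acadl -0.17 (95% interval -0.52 to 0.17) and for Ucp3 -0.31 (95% interval -0.80 to 0.18). All 4 intervals include 0 and also differences as large as their bounds, so equal action is not shown. For Mlycd, called in GW1516 minus vehicle, it was -0.27 (95% interval -0.82 to 0.29). Without GW1516 replicate 2 the interaction was 0.08 for Fbp2, 0.29 for Slc25a20, -0.06 for Acadl, -0.18 for Ucp3 and 0.03 for Mlycd.

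Among genes called against vehicle, Lpin1 and Exosc5 stood near 0 on addition to AICAR, and Plin4 had a smaller value than against vehicle. Lpin1, a phosphatidate phosphatase and coactivator of fat oxidation genes, had 5787, 5802 and 6015 in GW1516 plus AICAR arrays and 6013, 5886 and 5409 in AICAR arrays, overlapping, with a difference of 0.03 ± 0.084. It had 6155, 7551 and 6301 in GW1516 arrays, against 4195, 4498 and 4616 in vehicle arrays, a rise of 0.58 ± 0.084 (limma, adjusted p = 0.015). The vehicle arrays were thus the lowest of the 12. Plin4, a lipid droplet coat protein, had 4789, 5318 and 5018 in GW1516 plus AICAR arrays, against 3828, 4447 and 4503 in AICAR arrays, and 4310.3, 5488 and 4357 in GW1516 arrays, against 2761, 2726 and 2731 in vehicle arrays. With AICAR its groups did not overlap, and its change was 0.25 ± 0.10. Without AICAR it rose by 0.78 ± 0.10 (limma, adjusted p = 0.00583). Exosc5, a subunit of the RNA exosome, stood at -0.01 ± 0.10 with AICAR and rose by 0.68 ± 0.10 without (limma, adjusted p = 0.0178). The interaction was -0.56 (95% interval -0.81 to -0.30) for Lpin1, -0.53 (95% interval -0.82 to -0.24) for Plin4 and -0.69 (95% interval -1.0 to -0.39) for Exosc5, with unadjusted p of 0.00035, 0.00169 and 0.000255. None passed over all genes (limma, adjusted p = 0.703 for each), so a different action of GW1516 was not shown for them.

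The 2 genes that fell in GW1516 minus vehicle were Dkk3 and Col22a1, a collagen of the muscle-tendon junction. Col22a1 had 218, 259 and 229 in GW1516 plus AICAR arrays, against 320.2, 314 and 339 in AICAR arrays, and 218, 181 and 196 in GW1516 arrays, against 328, 372 and 439 in vehicle arrays. It stood at -0.47 ± 0.13 with AICAR (limma, adjusted p = 0.583) and fell by 0.93 on the log2 scale without (limma, adjusted p = 0.0141). With AICAR its other probe sets stood at -0.27 and -0.26. The remaining genes called without AICAR, Eci2, Ptp4a3 and Tacc2, stood at 0.46 ± 0.10, 0.33 ± 0.10 and 0.27 ± 0.089 on addition to AICAR, each with separate groups and none called.

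**Figure D5:**
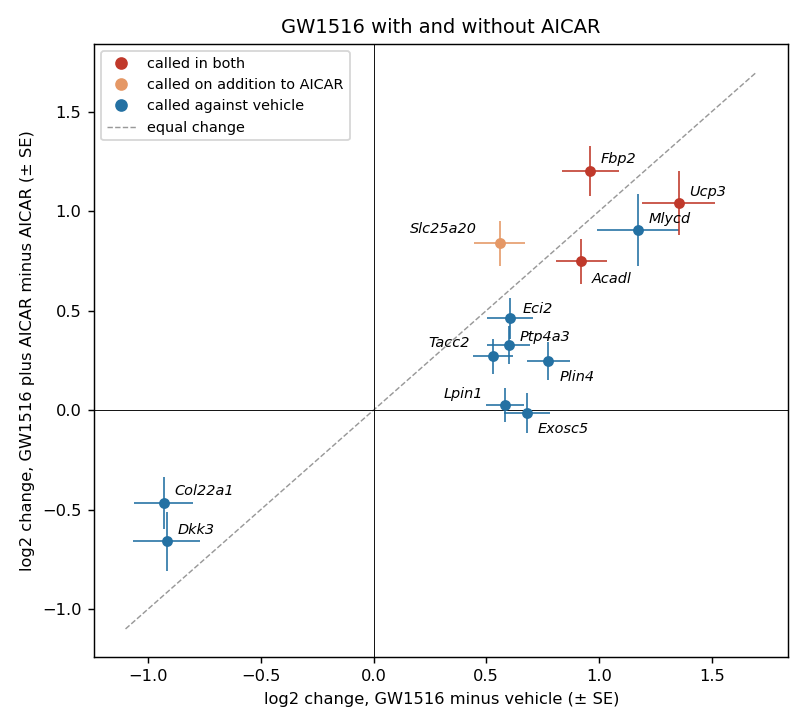
Log2 change in GW1516 plus AICAR minus AICAR (vertical axis) against that in GW1516 minus vehicle (horizontal axis) for the 13 genes called in either, with bars of 1 SE; the dashed line marks equal change. Fbp2 and Slc25a20 lie above the line, and Acadl, Ucp3 and Mlycd lie below it. Lpin1 and Exosc5 lie close to the horizontal axis at 0.58 and 0.68.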

How the data were processed

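Each deposited file value is an intensity, a MAS5 signal per probe set on a linear scale, per the submitters' processing notes; the values show the same trimmed mean on every array. No source used here states the MAS5 version or a genome build. Arrays give no depth in reads, so their number limits the precision.

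A floor of 1 replaced 3531 of 540444 values before log2, and arrays were not normalized further. Of 45101 probe sets, 64 controls were left out, as was the dimmest 40%, those under a mean signal of 28.2. In an array annotation dated 2016, 34945 of the 45037 other probe sets carried 1 gene symbol, 932 several and 9160 none, and 22714 of those with 1 symbol passed the filter. The brightest probe set over all 12 arrays stood for its gene, which gave 12771 genes.

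All 12 arrays entered one fit of 4 group means in limma 3.58.1 (R 4.3.3), where variances were moderated with a trend and had 8 residual plus 5.91 prior degrees of freedom. Two-sided p-values were adjusted by Benjamini-Hochberg over the 12771 genes, and called means an adjusted p below 0.05. Contrasts were GW1516 plus AICAR minus AICAR, GW1516 minus vehicle and their difference, the interaction. The code was tested on simulated data. Same-numbered arrays did not vary together (correlations of their deviations of -0.10, 0.01 and -0.06 between GW1516 plus AICAR and AICAR), so they were not treated as pairs.

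The members, 31 gene lists and 42 genes to be named whatever their result were chosen with earlier results of these data known. Also named were called genes, the 12 of smallest p per direction, up to 4 members per list, and genes leading the other contrasts. Other members of the fatty acid oxidation and glucose lists, the matrix collagens, Rnf122, Pim1 and Tfrc outside that rule were named after their values were seen. Of the 42, 38 were among the genes tested. Alternatives changed the normalization, pseudocount, filter, choice of probe set, variance model, threshold, arrays in the fit and replicate block, and left out each array in turn. Promoter windows came from RefSeq. Plots used matplotlib 3.10.9 (Python 3.11.15).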

Additional observations from a re-analysis of the deposited data

How the results depend on the processing

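With each array left out in turn, the count of genes called lay between 1 and 10 for GW1516 plus AICAR minus AICAR, between 0 and 41 for GW1516 minus vehicle, and stayed at 0 for the interaction. For GW1516 plus AICAR minus AICAR, 4 genes in the report, it was 2 under quantile normalization, median centring, no filter on dim probe sets or averaged probe sets per gene, and 1 with all probe sets tested, at an adjusted p below 0.01 or with the replicate number as a block (replicate block). It was 3 without a variance trend (Fbp2, Gins3 and Vsig10), 5 with array weights and 6 with only the groups compared. Ucp3 was not among those 6. Over 11 settings, Fbp2 was called in 11, Slc25a20 in 9, Acadl in 5 and Ucp3 in 3, and the rise kept its sign in each of these. The 11 left out the changed thresholds and the test of all probe sets. They included a pseudocount of 32, a filter on the lowest 60% and robust variances. At an adjusted p below 0.01 the 1 gene called was Fbp2. For GW1516 minus vehicle, 12 in the report, the count was 7 with averaged probe sets, 0 without a variance trend, 4 at an adjusted p below 0.01 and 2 with only the groups compared; the replicate block gave 11. Of the changes of 178 genes followed through the alternatives, those of 39 crossed 0 at least once, 67 crossings in all and none of them of a called change; in 10 the reported value exceeded its standard error. With averaged probe sets, changes moved to -0.041 for Auh, -0.13 for Des, -0.0036 for Gabarapl2, -0.050 for Mdh1, 0.25 for Pfkfb2, -0.13 for Ppara, -0.065 for Psmb4, -0.068 for Rps10, -0.017 for Sdhd and -0.029 for Slc25a42. Under quantile normalization, changes moved to -0.057 for Dcn, 0.014 for Exosc5, -0.042 for Lpin1 and 0.0097 for Pfkfb2. With array weights, changes moved to -0.072 for Cd36, -3.6e-05 for Dcn, -0.046 for Fasn and 0.0063 for Prkag3. With median centring, changes moved to 0.025 for Exosc5, 0.015 for Lpl and 0.035 for Scd1. With a pseudocount of 32, the change moved to 0.034 for Tnnt1. Over omissions of 1 array the lowest and highest changes were -0.010 and 0.15 for Acta2, -0.077 and 0.63 for Acvr1c, -0.99 and 0.43 for Ada, -0.014 and 0.24 for C1qa, -0.24 and 0.20 for Cd36, -2.78 and 0.31 for Cidea, -0.071 and 0.052 for Dcn, -0.070 and 0.018 for Exosc5, -0.61 and 0.049 for Fabp4, -0.40 and 0.60 for Fasn, -0.30 and 0.29 for Fbp1, -0.24 and 0.46 for Hbb-b2, -0.020 and 0.056 for Lpin1, -0.27 and 0.19 for Lpl and -0.21 and 0.15 for Myh1. They were -0.29 and 1.00 for Myh2, -0.031 and 0.44 for Myh7b, -1.11 and 0.16 for Ncmap, -0.12 and 0.038 for Pfkfb2, -0.14 and 0.19 for Plin3, -0.050 and 0.61 for Ppara, -0.055 and 0.14 for Ppard, -0.84 and 0.073 for Pparg, -0.56 and 0.10 for Prkaa1, -0.19 and 0.17 for Prkag3, -0.98 and 0.12 for Rpl14, -0.44 and 0.30 for Scd1, -0.16 and 0.0063 for Slc22a5, -0.78 and 0.039 for Sox10, -0.024 and 0.22 for Sult1a1 and -0.97 and 0.89 for Tnnt1. The causes were not tested. Dim probe sets limit the rest: the median standard error was 0.47 for genes with a mean signal under 64, against 0.087 over 4096.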

Other observations

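Lists of protein breakdown and stress responses had medians near 0 when GW1516 was added to AICAR. The proteasome list had 16 of 31 measured members above 0 and a median of 0.02 on the log2 scale, while in GW1516 minus vehicle 31 of 31 stood above 0 with a median of 0.23, or 26 with a median of 0.07 without GW1516 replicate 2. The list of atrophy and FOXO genes had a median of 0.06, beside 0.39 in GW1516 minus vehicle, or 0.14 without that array. The list of glucocorticoid-responsive genes had a median of -0.02, beside 0.70, or 0.28 without it. Differences between the comparisons were not tested for whole lists. In the atrophy list Foxo1, a transcription factor of fasting, had 763, 909.8 and 717 in GW1516 plus AICAR arrays, against 645, 709 and 667 in AICAR arrays, and 307, 660.2 and 532 in GW1516 arrays, against 262, 254 and 276 in vehicle arrays. The vehicle arrays held the lowest values, and the difference on addition to AICAR was 0.24 ± 0.20 (limma, adjusted p = 0.818). Ddit4, a stress-induced inhibitor of mTORC1 signalling, had 690.2, 554 and 593 in GW1516 plus AICAR arrays, against 1064, 922 and 1087 in AICAR arrays, separate groups that differed by -0.74 ± 0.32 (limma, adjusted p = 0.666). Ciart, a circadian repressor, had 230.0, 131 and 165 in GW1516 plus AICAR arrays, against 279, 266 and 282 in AICAR arrays, also separate, with a difference of -0.69 ± 0.19 (limma, adjusted p = 0.583), while the clock list as a whole had 10 of 20 members on either side of 0.

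The 5 genes of smallest p in the interaction, Polh, Cntfr, Exosc5, Ndufaf1 and Vapb, had adjusted p-values of 0.703 (limma). In 4 of them GW1516 went with higher signal in the presence of AICAR and lower signal in its absence, none called. For Vapb this depended on the probe set: the one used stood at 0.42 on addition to AICAR, the others at -0.01 and -0.23. Cntfr, the receptor of ciliary neurotrophic factor, had 175, 167 and 303 in GW1516 plus AICAR arrays, against 136, 141 and 117 in AICAR arrays, and 165, 93.2 and 92.5 in GW1516 arrays, against 216, 272 and 275 in vehicle arrays. Polh, a DNA polymerase that copies past damaged bases, had 190.0, 191 and 211 in GW1516 plus AICAR arrays, against 144, 139.9 and 186 in AICAR arrays, and 143, 150.3 and 180.5 in GW1516 arrays, against 250.1, 265 and 267 in vehicle arrays. A second Cntfr probe set stood at 0.07 on addition to AICAR. In both genes the vehicle arrays were high and the AICAR and GW1516 arrays low, though in Cntfr the third GW1516 plus AICAR array was the highest of all.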
